A study of Mus musculus with 13 samples.

Results

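The genes described here are the collagens, laminins and integrins of mouse spermatogonial libraries. They were chosen by symbol, with earlier results of these data known. The rule took every listed symbol of the form Col, Lam or Itg with a chain number or letter. It left out Itga6 and Itgb1 and added Fn1, Nid1, Nid2 and Lum. That gave 86 of 20662 listed gene symbols. They comprise 41 collagen chains, 11 laminin chains, 25 integrin chains (17 alpha and 8 beta) and 4 other matrix proteins. The other 5 symbols (Itgb1bp1, Itgb1bp2, Itgb1bp3, Itgb3bp and Itgbl1) match the pattern but encode no integrin chain.

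The series measured RNA in germ cells of the testis of C57BL/6 mice at postnatal week 8, by directional RNA-seq of total RNA depleted of ribosomal RNA. Of its 13 samples, the 2 labelled spermatogonia are used here, titled KIT_AGSC and THY1_AGSC, with 1 library each. The other 11 samples (spermatocytes, spermatids and mature sperm) were not analysed here. The labels do not say how these cells were isolated or how many animals gave them, and both groups share strain, age and tissue. Because each group has 1 library, each difference below has no replicate check and no p-value, and compares 2 libraries rather than 2 cell states.

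The names of the libraries are in doubt. Titles and column headings are crossed, with values under Thy1 for the title KIT and under Kit for the title THY1. Transcripts of Kit, the stem cell factor receptor, were at 0 in the library titled KIT and 36.7 FPKM in the library titled THY1. Transcripts of the surface antigen gene Thy1 were at 78.8 and 0.723 FPKM. Titles are followed here, as the KIT-labelled and the THY1-labelled library, and every direction would turn if they were exchanged. FPKM are fragments scaled to transcript length and to the library's mapped fragments, so levels of different genes can be compared. Unless stated otherwise, the first value is that of the KIT-labelled library and the second that of the THY1-labelled one, and 0 means that the gene is listed at 0.

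Fibrillar collagens form the tensile fibres of connective tissue, while collagen IV, laminins and nidogens build the sheet-like basement membrane. In the testis that membrane surrounds each seminiferous tubule, and spermatogonia rest on it. Integrins are cell surface receptors made of 1 alpha and 1 beta chain, and the alpha chain largely sets which matrix protein is bound. Collagens are trimers of alpha chains, and laminins are trimers of 1 alpha, 1 beta and 1 gamma chain. In bulk RNA such as this, fewer cells of a type and less RNA per cell cannot be told apart.

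The families differed in direction. Fibrillar collagens, the main collagen IV chains and most laminins stood higher in the THY1-labelled library, while integrin chains more often stood higher in the KIT-labelled one. For 77 members the larger value reached 1 FPKM, and these are called usable here. On the log2(FPKM + 1) scale, 34 of them stood 2-fold or more higher in the THY1-labelled library and 27 in the KIT-labelled library. Over all 15573 genes that met the same minimum, 41.1% were higher in the THY1-labelled and 39.5% in the KIT-labelled library, against 44.2% and 35.1% of the members, so the members as a whole lay near the background. The median difference, KIT-labelled minus THY1-labelled, was -0.54 for the members and -0.0026 for all genes. The shares of 41.1% and 39.5% are also the background for each group and list counted below.

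By family, 19 of 37 usable collagens were higher in the THY1-labelled library and 11 in the other, with a median difference of -1.23. Of 10 usable laminins, 6 were higher in the THY1-labelled library and 2 in the KIT-labelled one (median -2.22). Of 21 usable integrin chains, 12 were higher in the KIT-labelled library and 5 in the THY1-labelled one (median 1.30). These 3 directions were the same with a pseudocount of 0.1 and after each of 3 rescalings of the libraries. A further alternative, chosen after seeing the data, kept genes resting on at least 10 estimated fragments in both libraries. Medians were then 1.35 for collagens, -0.16 for laminins and 2.11 for integrins, against 1.30 for all genes. The collagens then lay near the background. However, that filter keeps mainly genes high in the KIT-labelled library, so it cannot decide the direction of a family. No test of a difference between families was made, since members chosen by name are not replicates.

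**Figure D1:**
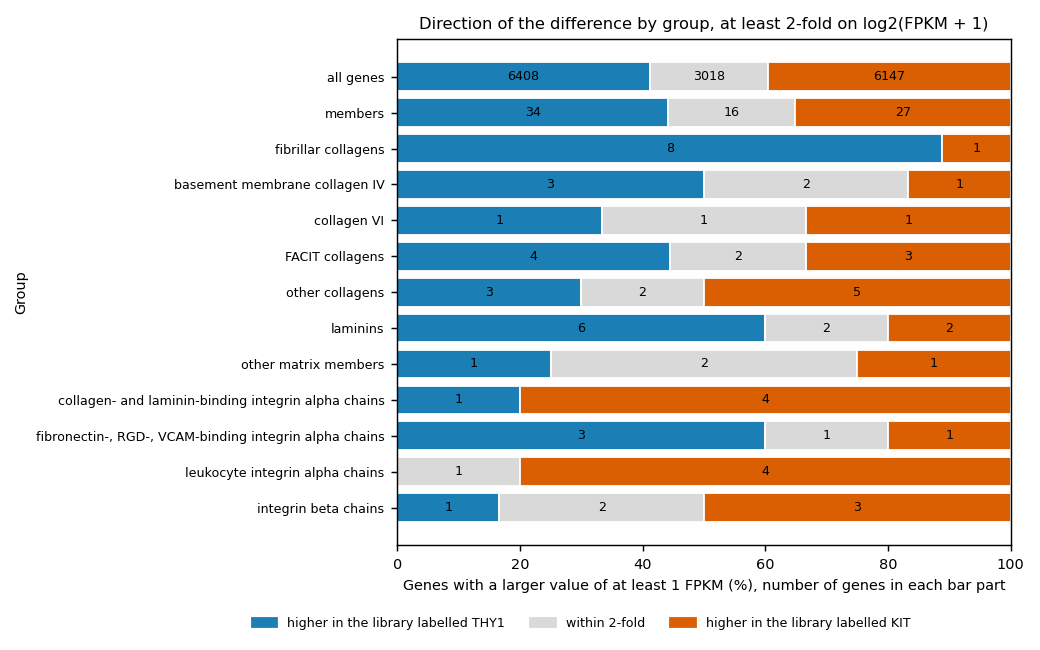
Share of genes (x axis, in percent) at least 2-fold higher in the THY1-labelled library, within 2-fold, or at least 2-fold higher in the KIT-labelled library, for all genes, for the 86 members and for each group (y axis); numbers in the bars count usable genes. Of the fibrillar collagens 8 of 9 were higher in the THY1-labelled library, and of the leukocyte integrin alpha chains 4 of 5 were higher in the KIT-labelled one.

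The libraries also differed in estimated depth. Total counts are not given, but a low-end estimate (FPKM multiplied by transcript length, at percentile 5 among genes with 1 annotated transcript) put 1 fragment at 2735 FPKM x bases in the KIT-labelled and 427 in the THY1-labelled library, a ratio of 6.41. By that estimate 59 of the 86 members rested on under 10 fragments in the KIT-labelled library and 21 in the THY1-labelled one. Of the 34 members higher in the THY1-labelled library, none had under 10 estimated fragments there, but 31 had under 10 and 19 had 3 or fewer in the KIT-labelled library. Over all genes with a length and that direction, these were 5362 and 3822 of 6349. Of the 27 members higher in the KIT-labelled library, 14 had fewer estimated fragments there than in the THY1-labelled library, as did 2045 of 6012 such genes in all. The median ratio among the 26 of these above 0 in both libraries was 6.27, and 12 of them lay within 1.5-fold of 6.41, against 1692 of 4994 over all genes. Of these 12 members 8 were integrin chains, out of the 12 integrin chains higher in the KIT-labelled library, whose median ratio was 6.86. Whether depth has a part in these differences was not tested.

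**Figure D2:**
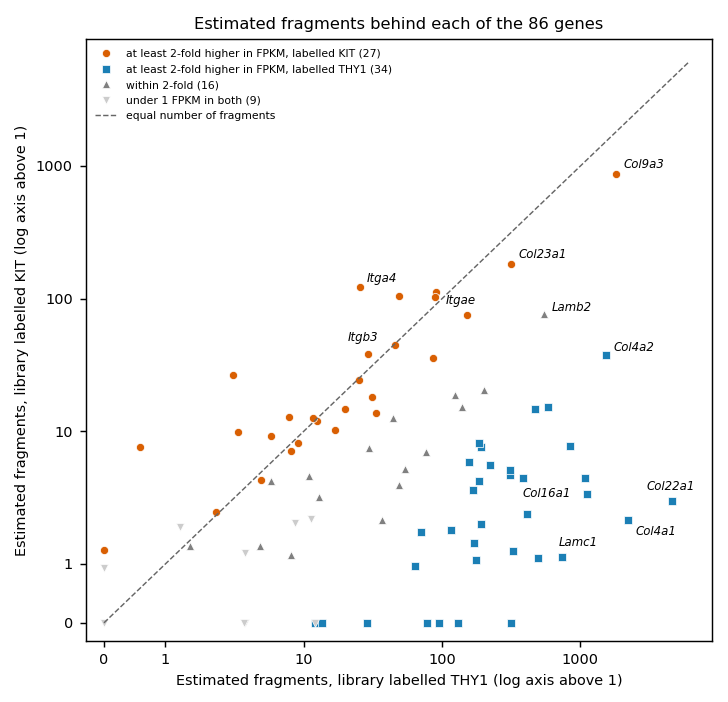
Estimated fragments behind each member in the THY1-labelled (x axis) and the KIT-labelled library (y axis), both log above 1; point shape and colour give the direction of the FPKM difference, and the dashed line marks equal numbers. Members higher in the KIT-labelled library in FPKM lie on both sides of that line, and most members higher in the THY1-labelled library lie under 10 fragments on the y axis.

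Most fibrillar collagens were higher in the THY1-labelled library. Of 11 listed, 9 were usable, and 8 of these were higher there and 1 in the KIT-labelled library, with a median difference of -1.87. Col3a1, the collagen of reticular fibres, was at 0.546 and 37.7 FPKM. Col5a1, whose product starts and limits fibril growth, was at 0.767 and 20.8 FPKM. Its partner chain Col5a2 stood at 0.401 and 4.12 FPKM, and Col5a3 at 0 and 5.39 FPKM. All 4 genes rested on at most about 3 estimated fragments in the KIT-labelled library, so the size of their differences is poorly set there.

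Type I collagen is a trimer of 2 Col1a1 chains and 1 Col1a2 chain and is the main collagen of connective tissue. Its genes did not stand in that proportion. Col1a2 was at 3.91 and 15.2 FPKM, whereas Col1a1 was at 0.934 and 0.618 FPKM and under the minimum in both. In the THY1-labelled library Col1a2 was thus 24.6 times as high as Col1a1. The estimated fragments behind Col1a1 were 2.03 and 8.58.

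The cartilage collagens differed among themselves. Col2a1, the main cartilage collagen, was at 3.14 and 13.1 FPKM and Col11a2 at 0.646 and 11.9 FPKM. Col11a1 was the fibrillar exception, at 4.92 FPKM in the KIT-labelled and 1.85 FPKM in the THY1-labelled library. The remaining chains were low, with Col27a1 at 0.630 and 3.92 FPKM and Col24a1 at 0.727 and 0.0761 FPKM.

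Markers of fibroblasts stood higher in the same library as the fibrillar collagens. The summed level of 7 stromal fibroblast markers was 76.1 FPKM in the KIT-labelled and 823 FPKM in the THY1-labelled library. In the former 4 of the 7 were listed at 0, among them the proteoglycan Dcn and the growth factor receptor Pdgfra, and none was in the latter. Most of the larger sum was Sparc, at 679.9 FPKM, and of 6 usable markers 4 were higher there and 1 in the KIT-labelled library. Peritubular myoid markers, of contractile cells around the tubule, had sums of 226 and 172 FPKM. Of 5 usable ones 4 were higher in the KIT-labelled library, and Actg2, a smooth muscle actin gene, was higher in the other at 9.14 and 116 FPKM. The part of such cells in the collagen values was not tested.

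Collagen IV, the network collagen of basement membranes, was carried mainly by Col4a1 and Col4a2 in the THY1-labelled library. Col4a1 was at 0.879 and 143 FPKM. Col4a2 was at 15.9 and 102 FPKM, a difference of 6.39-fold. These chains form the common trimer, with 2 Col4a1 chains to 1 Col4a2 chain. In the THY1-labelled library Col4a1 was 1.41 times as high as Col4a2, while in the KIT-labelled library Col4a2 was 18.1 times as high as Col4a1. The latter ratio rests on about 2.13 estimated fragments of Col4a1 against 37.6 of Col4a2.

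The genes of these chains lie head to head, so their start regions are given for the pair with the highest levels and for the X-linked pair Col4a5 and Col4a6. The windows come from RefSeq on GRCm38.p6 (the deposited values were made on mm9), run 5′ to 3′ on the gene's own strand and span 250 bases before to 50 after the start. The Col4a1 window is chr8:11312777-11313076 on the minus strand and the Col4a2 window chr8:11312555-11312854 on the plus strand of chromosome 8. Their starts are 21 bases apart and the windows share 78 bases. The minus-strand Col4a1 start (11312826) lies above the plus-strand Col4a2 start (11312805), so the genes overlap there and leave no gap. The Col4a5 window is chrX:141475169-141475468 on the plus strand and the Col4a6 window chrX:141474027-141474326 on the minus strand, with starts 1343 bases apart. Capitals mark GGGCGG and CCAAT on either strand, where no match overlapped another.
Col4a1: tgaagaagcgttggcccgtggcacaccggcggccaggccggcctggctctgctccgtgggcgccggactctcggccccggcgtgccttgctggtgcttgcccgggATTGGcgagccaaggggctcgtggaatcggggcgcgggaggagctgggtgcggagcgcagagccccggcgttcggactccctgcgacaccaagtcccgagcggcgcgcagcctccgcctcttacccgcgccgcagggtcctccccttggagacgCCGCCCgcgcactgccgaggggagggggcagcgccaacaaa
Col4a2: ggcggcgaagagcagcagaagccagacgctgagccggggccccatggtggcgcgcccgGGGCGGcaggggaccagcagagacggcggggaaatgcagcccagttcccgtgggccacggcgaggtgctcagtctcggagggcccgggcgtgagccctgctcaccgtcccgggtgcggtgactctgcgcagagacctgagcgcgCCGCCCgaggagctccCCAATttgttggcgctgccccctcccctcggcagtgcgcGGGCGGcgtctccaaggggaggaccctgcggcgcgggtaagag
Col4a5: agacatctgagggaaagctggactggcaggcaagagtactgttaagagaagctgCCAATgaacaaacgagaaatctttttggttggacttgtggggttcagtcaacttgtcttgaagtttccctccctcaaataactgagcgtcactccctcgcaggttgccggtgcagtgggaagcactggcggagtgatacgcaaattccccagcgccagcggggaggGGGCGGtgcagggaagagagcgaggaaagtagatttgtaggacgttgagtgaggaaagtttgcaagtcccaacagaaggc
Col4a6: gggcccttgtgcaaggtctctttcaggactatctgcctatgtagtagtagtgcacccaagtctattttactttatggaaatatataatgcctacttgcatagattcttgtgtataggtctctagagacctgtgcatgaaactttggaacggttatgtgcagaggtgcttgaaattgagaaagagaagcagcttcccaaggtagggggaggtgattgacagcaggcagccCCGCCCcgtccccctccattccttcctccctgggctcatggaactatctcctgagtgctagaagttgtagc

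GGGCGG, a GC box, occurred 1 time in the Col4a1 window, 3 times in the Col4a2 window and 1 time each in the Col4a5 and Col4a6 windows. The Col4a1 match lies in the bases shared with the Col4a2 window and is the same site as 1 of the 3 there. CCAAT occurred 1 time in each of the Col4a1, Col4a2 and Col4a5 windows and was not in the Col4a6 window. TATAAA was in none of the 4. The Col4a4 window, not printed here, held none of these motifs, and no Col4a3 window was available. Of 32851 such windows of RefSeq genes outside chromosome 18, 35.7% hold GGGCGG, 37.4% CCAAT and 13.6% TATAAA on either strand, so a match is common.

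The other collagen IV chains make the special trimers of kidney and other organs. Col4a5 was at 0 and 20.6 FPKM, and its head-to-head neighbour Col4a6 at 0.878 and 2.35 FPKM. Col4a3 was within 2-fold, at 5.98 and 6.15 FPKM, with about 18.7 and 123 estimated fragments. Its direction changed after scaling to the upper quartile (0.48 on the log2 scale, from -0.034). Col4a4 was the only collagen IV gene higher in the KIT-labelled library by at least 2-fold, at 4.92 and 1.33 FPKM. In all, 3 of 6 collagen IV genes were higher in the THY1-labelled library, with a median of -1.72.

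Collagen VI makes beaded microfilaments next to basement membranes. Col6a1 was at 0.841 and 33.8 FPKM. Col6a2, whose product joins it in every trimer, was at 1.76 and 1.13 FPKM. In the THY1-labelled library Col6a1 was thus 30.0 times as high as Col6a2. Col6a6 (2.20 and 0.394 FPKM) and Col6a4 (0.808 and 0.653 FPKM) were low in both.

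FACIT collagens, which do not form fibrils but decorate them, included the highest values of all members and split between the libraries. Col9a3, a chain of the cartilage collagen IX, was the highest member in both, at 785 and 253 FPKM (3.10-fold). Its partner chains were far lower, with Col9a2 at 4.03 and 0.718 FPKM and Col9a1 at 0 and 1.34 FPKM. Col9a3 overlaps Tcfl5, a germ cell transcription factor gene listed at 23.8 and 32.0 FPKM, well under Col9a3 itself. Reads of overlapping genes can be told apart by strand only if the counting used it, which is not given in the sources used here.

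Among the other FACIT genes, Col22a1, a collagen of tissue junctions, was at 0.930 and 222 FPKM. Col16a1 stood at 1.77 and 91.6 FPKM, and Col20a1 at 4.25 and 71.1 FPKM. All 3 were among the 7 highest members of the THY1-labelled library, and in the KIT-labelled library each rested on under 10 estimated fragments. Col14a1 was within 2-fold at 5.30 and 2.93 FPKM, and at least 2-fold higher in the KIT-labelled library after scaling to the upper quartile. Col12a1 (1.79 and 1.10 FPKM) was also within 2-fold. Col19a1 (3.85 and 0.0456 FPKM) was higher in the KIT-labelled library with about 7.66 estimated fragments. In this group 4 of 9 were higher in the THY1-labelled and 3 in the KIT-labelled library, while the median was 0.41. These shares, 44.4% and 33.3%, lay near the 41.1% and 39.5% of all genes.

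Of the remaining 11 collagens, 10 were usable, with 5 higher in the KIT-labelled and 3 in the THY1-labelled library. Col10a1, the collagen of hypertrophic cartilage, was at 97.9 and 12.3 FPKM (7.96-fold). It overlaps Nt5dc1, listed at 15.7 and 17.7 FPKM. The membrane-spanning collagen Col23a1 was at 88.8 and 23.9 FPKM (3.72-fold). These had about 112 and 184 estimated fragments in the KIT-labelled library, so they are among its best-covered members.

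The network collagen VIII of vessel walls was higher in the KIT-labelled library, with Col8a1 at 14.3 and 0.256 FPKM and Col8a2 at 6.44 and 1.66 FPKM. Col17a1, the membrane collagen of hemidesmosomes, was at 5.85 and 0.952 FPKM. On the other side stood Col18a1, the basement membrane collagen from which endostatin is cut, at 7.20 and 35.7 FPKM (4.95-fold). The anchoring-fibril collagen Col7a1 was at 1.64 and 10.3 FPKM. Col15a1 (2.75 and 4.45 FPKM) and Col13a1 (1.02 and 1.08 FPKM) were within 2-fold. Col28a1 and Col25a1 were listed at 0 in the KIT-labelled library, against 1.37 and 0.238 FPKM.

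**Figure D3:**
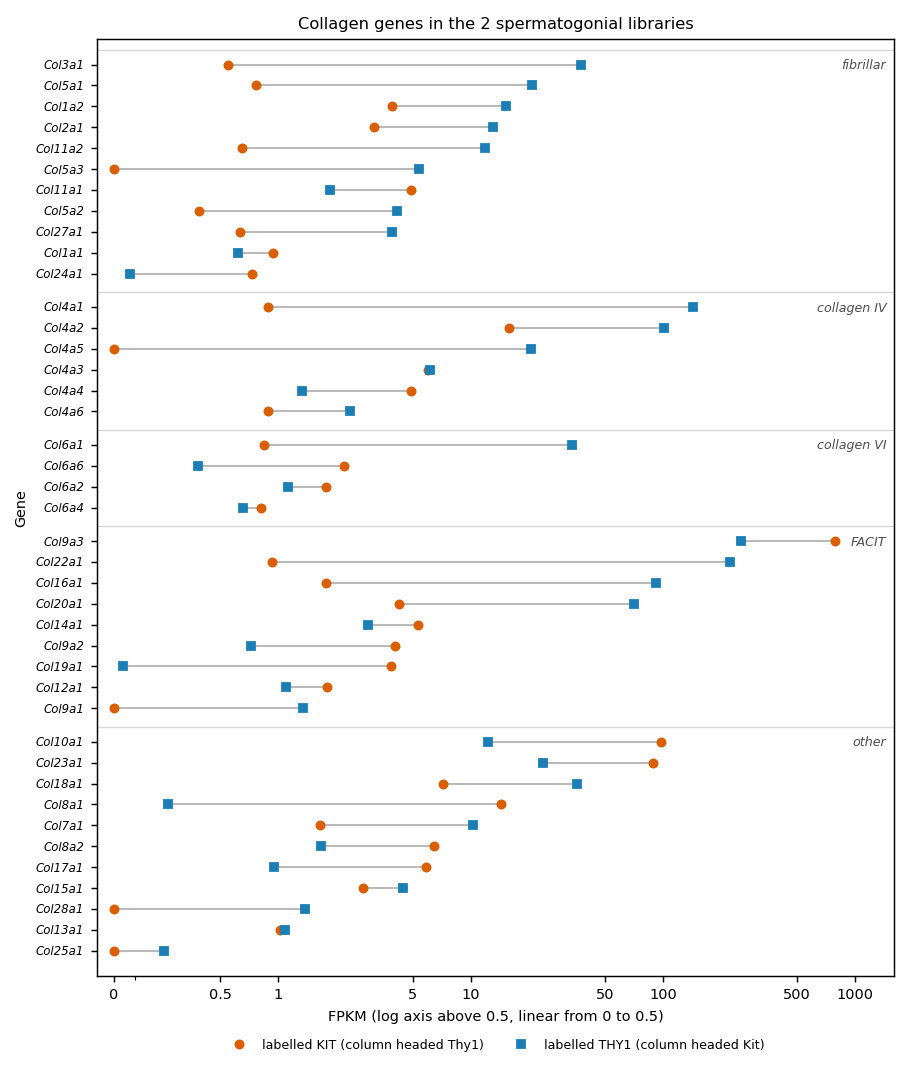
FPKM of each of the 41 collagen genes (y axis, grouped by kind) in the KIT-labelled (circles) and the THY1-labelled library (squares), joined by a line, on an axis that is log above 0.5. Col9a3 is the highest in both at 785 and 253 FPKM, and the longest lines toward the THY1-labelled library belong to Col22a1 and Col4a1.

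Laminins differed by chain. Lamc1, the gamma chain of most laminins, was at 0.406 and 41.5 FPKM. The beta chains that pair with it were Lamb1 at 7.23 and 43.0 FPKM and Lamb2 at 37.0 and 41.5 FPKM. All 3 were thus within 1.04-fold of each other in the THY1-labelled library. In the KIT-labelled library Lamb1 and Lamb2 were 17.8 and 91.3 times as high as Lamc1, which rested on about 1.13 estimated fragments of Lamc1. Lamb2 was within 2-fold, on about 76.2 and 548 estimated fragments. Its difference was -0.16 as deposited, 0.41 after upper-quartile scaling and 0.056 when the sum without Rpph1 was used.

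The alpha chains, which carry the main cell-binding site, differed in direction among themselves. Lama1, of early basement membranes, was at 0.308 and 7.83 FPKM, Lama2, of muscle, at 0.517 and 5.14 FPKM, and Lama4, of vessels, at 0 and 9.22 FPKM. Lama5, the most widespread alpha chain of adult tissue, went the other way at 18.0 and 5.64 FPKM (3.19-fold), with about 74.9 and 150 estimated fragments. So the leading alpha chain was Lama5 in the KIT-labelled library and Lama4 in the THY1-labelled one. Lamc3 was at 2.37 and 22.3 FPKM.

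The epithelial laminin chains Lamb3 and Lama3 were low. Lamb3 was at 5.17 and 0.505 FPKM and higher in the KIT-labelled library, on about 9.21 estimated fragments there. Lama3 was at 1.09 and 0.233 FPKM and within 2-fold.

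The other 4 matrix members were modest. The nidogens, which link laminin to collagen IV, were within 2-fold, with Nid1 at 3.15 and 5.38 FPKM and Nid2 at 8.59 and 12.3 FPKM. Nid2 overlaps Rtraf, listed under its older symbol 2700060E02Rik at 83.3 and 17.4 FPKM. Its direction changed after scaling to the upper quartile (0.058, from -0.47 as deposited). Fn1, the adhesive matrix protein fibronectin, was at 1.39 and 9.57 FPKM. Lum, a collagen-binding proteoglycan, was at 1.41 and 0 FPKM, on about 1.27 estimated fragments.

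Integrin alpha chains that bind collagen or laminin were mostly higher in the KIT-labelled library, for 4 of 5 usable genes. Itga3, a laminin receptor chain of epithelia, was at 19.9 and 7.51 FPKM (2.65-fold). Itga7, a laminin receptor chain of muscle, was at 8.68 and 0.826 FPKM. The collagen receptor chains Itga11 and Itga2 were at 8.09 and 1.70 FPKM and at 4.84 and 0.701 FPKM. Itga1, also a collagen receptor chain, was the exception at 2.03 and 7.18 FPKM, and Itga10 was at 0.661 and 0.318 FPKM. Genes of matrix chains went both ways. Of 10 usable laminins, 6 were higher in the THY1-labelled library, Lamc1 among them, and Lama5 and Lamb3 in the KIT-labelled one. Of 37 usable collagens, 19 were higher in the THY1-labelled library, Col4a1 among them, and 11 in the KIT-labelled one. The beta chain with which all of these integrin alpha chains pair, Itgb1, which is not among the members, was at 23.9 and 111 FPKM. The laminin receptor chain Itga6, also left out by the rule, was at 0 and 3.56 FPKM and so higher in the THY1-labelled library.

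The chains that bind fibronectin, other RGD proteins or VCAM were mixed, with 3 of 5 usable genes higher in the THY1-labelled library and 1 in the other. Itgav, the alpha chain of the vitronectin receptors, was at 1.71 and 64.8 FPKM, and Itga5, of the fibronectin receptor, at 2.88 and 30.0 FPKM. Itga9 was at 1.42 and 10.2 FPKM. Itga4, a chain of the VCAM1 and fibronectin receptor of leukocytes, stood opposite at 34.0 and 1.11 FPKM (30.7-fold). With about 121 and 25.3 estimated fragments, Itga4 was 1 of the better-covered differences. It overlaps Cerkl, listed at 1.53 and 2.34 FPKM. Itga2b, of platelets, was at 1.08 and 0.188 FPKM, and Itga8 was listed at 0 in both.

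The leukocyte alpha chains were higher in the KIT-labelled library in 4 of 5 cases, and the other, Itgal, was at 2.42 and 0.898 FPKM and within 2-fold. Itgae, the chain by which T cells hold epithelial cadherin, was at 73.2 and 9.79 FPKM (7.48-fold). Itgad was at 25.6 and 3.03 FPKM (8.44-fold). It overlaps Cox6a2, a muscle respiratory gene listed at 240 and 8.54 FPKM, and Itgae overlaps Haspin, listed under its older symbol Gsg2 at 14.3 and 4.80 FPKM. Itgax, of dendritic cells, was at 5.56 and 0.953 FPKM, and Itgam, of myeloid cells, at 1.44 and 0.212 FPKM. The call of Itgam rests on about 2.47 estimated fragments and was lost after scaling to a median ratio of 1, where 3 of 5 chains were higher.

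Itgb2, the partner of Itgal, Itgam, Itgax and Itgad, did not go with them. It was at 3.65 and 6.97 FPKM, within 2-fold and larger in the THY1-labelled library. In the KIT-labelled library Itgad was 7.02 times as high as Itgb2. In the THY1-labelled library Itgb2 was 2.30 times as high as Itgad and 7.76 times as high as Itgal. Itgb7, the partner of Itgae and Itga4 on lymphocytes, was at 9.99 and 0.534 FPKM.

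Leukocyte markers did not move in 1 direction either. The summed level of 9 macrophage markers was 270 and 967 FPKM (the latter mostly 1 gene, at 880.5 FPKM), with 4 higher in the KIT-labelled library and 3 in the other. That of 8 T lymphocyte markers was 51.8 and 19.0 FPKM, with 4 higher in the KIT-labelled library and 2 in the other. Ptprc, which all leukocytes carry, was at 0 and 4.34 FPKM, and Cd3g, of T cells, was listed at 0 in both. Cd5 (27.5 and 2.95 FPKM) and Cd8a (10.2 and 0.777 FPKM) were among the 4 T lymphocyte markers higher in the KIT-labelled library. C1qb (118.7 and 16.0 FPKM) was among the 4 such macrophage markers. The part of leukocytes in the integrin values was not tested.

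Among the beta chains, 3 of 6 usable genes were higher in the KIT-labelled library and 1 in the other. Itgb3, of platelets and vitronectin receptors, was at 21.3 and 3.38 FPKM (6.30-fold), on about 45.0 and 45.7 estimated fragments. Its alpha partner Itgav thus stood the other way, at 19.2 times Itgb3 in the THY1-labelled library. Itgb4, of hemidesmosomes, was at 10.8 and 1.73 FPKM, on about 24.5 and 25.2 estimated fragments. Itgb5, another partner of Itgav, was within 2-fold at 17.0 and 25.9 FPKM, and Itgb8 was at 0 and 4.85 FPKM. Itgb6 (0.528 and 0 FPKM) and Itgb2l (0 and 0.561 FPKM) were under the minimum.

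Platelet markers were also present. Of 7 listed, the member Itga2b among them, 4 were higher in the KIT-labelled library and 1 in the other, with sums of 144 and 40.2 FPKM. Most of both sums was Gp1ba (74.5 and 25.5 FPKM) and Gp9 (60.8 and 6.28 FPKM). The defining platelet gene Ppbp was listed at 0 in both, and Pf4 at 0 and 7.87 FPKM. The part of platelets in the value of Itgb3 was not tested.

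**Figure D4:**
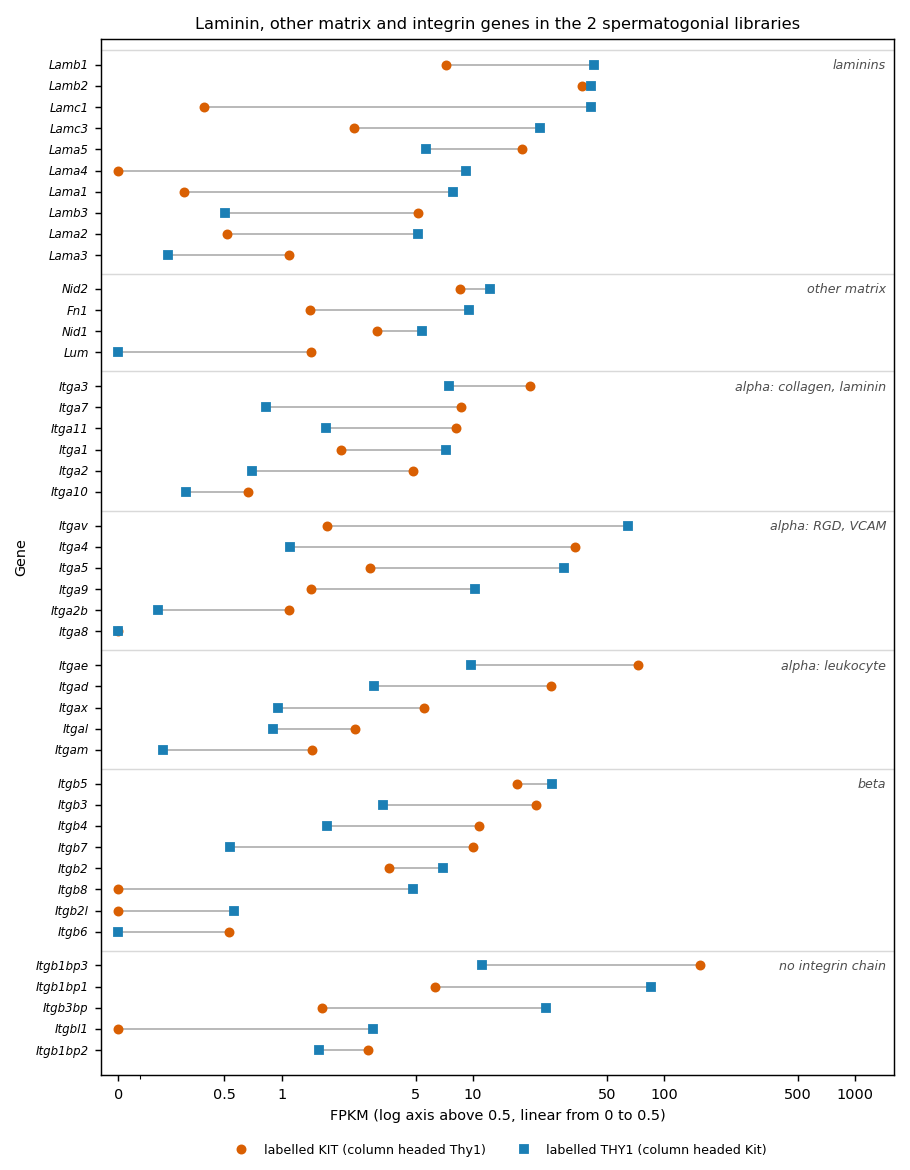
FPKM of 10 laminin genes, of each other matrix and integrin gene and of the 5 symbols that encode no integrin chain (y axis) in the KIT-labelled (circles) and the THY1-labelled library (squares), on an axis that is log above 0.5. Lamb1, Lamb2 and Lamc1 sit together at 41.5 to 43.0 FPKM in the THY1-labelled library, and all leukocyte alpha chains have the circle to the right.

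The 5 symbols that match by name only included high values. Itgb1bp3, an older symbol of a nicotinamide riboside kinase gene, was at 155 and 11.1 FPKM, the second highest member of the KIT-labelled library. Itgb1bp1, which binds the tail of the Itgb1 product, was at 6.28 and 85.7 FPKM. It overlaps Cpsf3, listed at 12.1 and 85.9 FPKM, and Asap2, listed at 46.2 and 5.44 FPKM. Itgb3bp, a centromere protein gene, was at 1.62 and 24.0 FPKM, Itgbl1 at 0 and 3.00 FPKM and Itgb1bp2 at 2.82 and 1.56 FPKM. Without these 5 symbols 31 members were higher in the THY1-labelled and 26 in the KIT-labelled library.

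Genes that act on the matrix or its receptors were then counted on lists chosen for their function. Of 25 usable genes of collagen modification, secretion and cross-linking, 10 were higher in the KIT-labelled and 8 in the THY1-labelled library. These were 40% and 32%, against 39.5% and 41.1% of all genes. The hydroxylases Plod2 (0.661 and 113 FPKM) and P4ha1 (0.555 and 100.5 FPKM) and the secretion factor Ctage5 (3.40 and 131 FPKM) led toward the THY1-labelled library. Each of these rested on under 10 estimated fragments in the KIT-labelled library. The glycosyltransferase Glt25d2 (36.4 and 1.77 FPKM), the hydroxylase P4ha3 (19.6 and 1.28 FPKM) and the cross-linking Loxl4 (71.5 and 10.8 FPKM) led toward the KIT-labelled library. Serpinh1, the collagen chaperone, chosen after its values were seen, was within 2-fold at 5.42 and 2.33 FPKM.

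Other matrix proteins stood higher more often in the THY1-labelled library, with 11 of 19 usable genes higher there and 6 in the other. These were 57.9% and 31.6%, against 41.1% and 39.5% of all genes. Dcn (0 and 91.9 FPKM), the calcium-binding Sparc (15.1 and 679.9 FPKM) and Smoc1 (0 and 31.6 FPKM) led there. Emilin1, of elastic fibres (19.3 and 0.828 FPKM), the adhesive Vtn (12.1 and 0.534 FPKM) and Tnc (8.78 and 1.17 FPKM) led toward the KIT-labelled library. Of 13 usable matrix metalloproteinases and inhibitors, 6 (46.2%) were higher in each library, near the background. The inhibitors Timp1 (9.20 and 50.1 FPKM), Timp2 (1.83 and 33.4 FPKM) and Timp3 (2.48 and 12.1 FPKM) led toward the THY1-labelled library, and Mmp23 (28.9 and 2.27 FPKM), Mmp15 (8.42 and 0.134 FPKM) and Mmp11 (15.5 and 1.14 FPKM) toward the other.

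Genes of integrin adhesion and signalling, a list of actin linkers, kinases, adaptors and membrane partners of integrins, were mostly higher in the THY1-labelled library. Of 23 usable genes, 17 were higher there and 2 in the KIT-labelled one (median -1.70). These were 73.9% and 8.70%, against 41.1% and 39.5% of all genes. The integrin activator Fermt2 was at 1.47 and 78.0 FPKM, the linker Tns1 at 2.33 and 86.8 FPKM and the talin gene Tln2 at 0.212 and 32.6 FPKM. Each is among the 14 of these 23 genes that rested on under 10 estimated fragments in the KIT-labelled library. Of all 20300 genes with a length, 14317 did so. The 2 genes higher in the KIT-labelled library were the kindlins Fermt3 (18.8 and 7.18 FPKM) and Fermt1 (6.77 and 2.56 FPKM). Vcl, the actin linker vinculin, was larger there but within 2-fold at 29.6 and 16.0 FPKM. So were Actn4 (48.6 and 28.7 FPKM) and Ilk (127 and 103 FPKM). The other collagen and laminin receptors split 4 to 4 among 11 (36.4% each), near the background. Sdc4 (5.18 and 57.8 FPKM), Itgb1 and Sdc1 (2.37 and 9.19 FPKM) led toward the THY1-labelled library. The collagen receptors Lair1 (11.0 and 2.28 FPKM) and Gp6 (15.6 and 3.77 FPKM) and the laminin-binding Rpsa (14.4 and 4.35 FPKM) led toward the other.

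Markers of other cells ran through both libraries. Of 14 spermatogonial markers 12 were usable, with 4 higher in the KIT-labelled library and 7 in the other. Nanos3 (118 and 2.74 FPKM) was among the former and Ddx4 (1.77 and 140 FPKM) among the latter. In the KIT-labelled library 4 of the 14 were listed at 0, Zbtb16 among them. Zbtb16 was the only 1 listed at 0 in the THY1-labelled library. The 12 meiotic and later germ cell markers summed to 5023 and 8027 FPKM, with 5 higher in the KIT-labelled library and 7 in the other. Those 5 were spermatid genes such as the protamine gene Prm1 (2406 and 184 FPKM), while Sycp1, of the synaptonemal complex (1.48 and 79.8 FPKM), and Crisp2 (24.4 and 4082 FPKM) were among the 7. The sums of 8 Leydig cell markers were 189 and 12931 FPKM, of 9 Sertoli cell markers 27.9 and 914 FPKM (the latter mostly 1 gene, at 848 FPKM) and of 9 endothelial markers 67.1 and 12.4 FPKM. Among the last, the defining genes Pecam1 (0 and 0.219 FPKM) and Cdh5 (0.649 and 3.30 FPKM) were low. Tek (46.6 and 3.47 FPKM) made up most of the endothelial sum in the KIT-labelled library. Of 6 usable endothelial markers, 3 were higher there and 2 in the other. Of 7 usable Sertoli cell markers 3 were higher in each library, and of 8 usable Leydig cell markers 7 were higher in the THY1-labelled one. A single noncoding RNA, Rpph1, made up 71.8% and 37.9% of all FPKM. The part of any of these in the values of collagens, laminins or integrins was not tested.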

How the data were processed

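Values of 2 libraries were used. The deposited tables hold 1 decimal value per gene symbol and give it no unit. They are treated as FPKM made by the authors, since the submitters' processing notes name Cufflinks 2.1.1. They also name TopHat 1.4.1, CASAVA and build mm9. How strand, filters and annotation were handled is not given in the sources used here. Titles set the groups, and the record of each table's sample set which values belong to it.

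Differences are log2(FPKM + 1), KIT-labelled minus THY1-labelled, which understates the change of low genes. A gene was usable when its larger value reached 1 FPKM, and was called higher from 2-fold. There is no test with 1 library per group. Members and lists were chosen with earlier results of these data known. Both values are printed for members reaching 5 FPKM in either library and their partner chains, and, of each pathway list, for the 3 genes past that level with the largest difference each way. The remaining members were added after their values were seen, except 1 laminin that is not reported here. Transcript lengths came from GENCODE M21 (longest transcript, all 86 members matched), and overlapping genes from RefSeq GRCm38.p6, where all 86 matched by symbol or synonym. Estimated fragments used genes with 1 transcript over 1000 bases. Counting was checked on simulated data. Alternatives were a pseudocount of 0.1, 3 rescalings, other minimums, 4-fold, and leaving out names that encode no chain. Software was pandas 2.3.3, numpy 2.4.6 and matplotlib 3.10.9 under Python 3.11.15.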

Additional observations from a re-analysis of the deposited data

How the results depend on the processing

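No paired analysis was possible because each group has 1 library. Members higher in the THY1-labelled library numbered 34 and in the KIT-labelled 27. At 4-fold 27 and 12 were, or 35.1% and 15.6%, against 29.4% and 23.8% of all genes. Apart from that and from the added filter described last, both counts stayed within 1.5 times under the settings tried. The median difference of all members (-0.54) was -1.58 with a minimum of 5 FPKM, -1.25 where the larger value was worth at least 10 fragments, -0.23 with no minimum, -0.046 over genes above 0 in both libraries, -0.32 after scaling to the sum without Rpph1 and 0.17 after scaling to the upper quartile. The median of all genes (-0.0026) was in the same order -0.40, -0.88, 0.0, 0.42, 0.22 and 0.56, above that of the members each time. The collagen median (-1.23) was -0.31 after scaling to the upper quartile, -1.93 when 0.1 was the pseudocount, -2.16 with a minimum of 5 FPKM, and -0.54 with no minimum or over genes above 0 in both. The integrin median (1.30) was 2.19 with a pseudocount of 0.1 and 0.85 with no minimum. The cause of these changes was not tested.

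An alternative chosen after seeing the data kept genes worth at least 10 estimated fragments in both libraries. Because 1 fragment is worth 6.41 times more in the KIT-labelled library, it keeps mainly genes high there. Of 25 members, 17 were then higher in the KIT-labelled and 3 in the THY1-labelled library, against 55.0% and 18.8% of all 5245 such genes. Medians were 1.52 for members, 1.35 for collagens (reversed), -0.16 for laminins and 2.11 for integrins, and 1.30 for all genes. Of the 34 members higher in the THY1-labelled library, 31 have under 10 estimated fragments in the other, and counting error on so few is large.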

Other observations

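Of the 86 members, 17 overlap another listed gene and 57 have a listed gene overlapping or within 10 kb in RefSeq GRCm38.p6. The same shares over all listed genes were not computed, so these counts cannot be called high or low. Some neighbours stood higher in the same library as the member, and these were chosen after their values were seen. Col23a1 (88.8 and 23.9 FPKM, KIT-labelled library first) lies within 10 kb of Phykpl, listed under its older symbol Agxt2l2, at 323 and 76.0 FPKM. Itgb1bp3 (155 and 11.1 FPKM) lies within 10 kb of the neuronal gene Atcay at 87.7 and 8.35 FPKM, and Itga7 (8.68 and 0.826 FPKM) within 10 kb of Bloc1s1 at 29.3 and 2.48 FPKM. Itga7 also overlaps Mettl7b, listed at 5.04 and 0.673 FPKM. Others stood apart from their neighbours. Col1a1 (0.934 and 0.618 FPKM) lies within 10 kb of the sarcoglycan gene Sgca at 81.8 and 6.32 FPKM, and Lamb2 (37.0 and 41.5 FPKM) within 10 kb of Usp19 at 5.50 and 51.8 FPKM. Itga1 (2.03 and 7.18 FPKM) overlaps Pelo, listed at 13.3 and 0.403 FPKM.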
